A study of Mus musculus with 13 samples.

Results

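Core-like neurons of the mouse claustrum, the cells in which a set of genes led by Synpr scored highest, were 439 of the 1011 excitatory neurons kept here, out of 1112 harvested. They were chosen by measured values. A cell was kept if it had at least 1 count of Snap25, a gene of the presynaptic fusion machinery, and at least 1 count of Slc17a7, which encodes a vesicular glutamate transporter. In each kept cell the standardized levels were averaged over 5 core genes (Synpr, Gnb4, Lxn, Gfra1 and Cpne4), 4 shell genes (Slc30a3, Col6a1, Mpped1 and Spon1) and 5 deep-layer genes (Sla, Foxp2, Rprm, Syt6 and Tle4), and the cell was called core-like if the core mean was the highest of the 3. The remaining 572 kept cells, called other cells, comprised 434 shell-like and 138 deep-like cells.

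All cells came from 4 mature male C57BL/6 mice and were picked by hand from the microdissected claustrum into 13 plates, so that the same mice supplied the core-like and the other cells. In 1 animal (the blind mouse) a retrograde AAV carrying GFP, injected in the anterior cingulate cortex, guided where tissue was cut, and cells were taken without regard to GFP. The other 3 animals (projection mice 1, 2 and 3) carried retrobeads, fluorescent beads that travel back along axons to the cell body, from the lateral entorhinal cortex (LEC) and the retrosplenial cortex (RSC). In these mice some cells were picked for a label and others without one, so shares of cells depend on that choice, and a cell without beads may still project to either target. The labels call the blind mouse WT with no projection, and they give no genotype for the projection mice.

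The claustrum is a thin sheet of mostly glutamatergic neurons beneath the insular cortex that is reciprocally connected with much of the cortex, including cingulate and retrosplenial areas. Its densest part, the core, has long been delineated by genes such as Gnb4, Lxn, Synpr and Nr4a2, and cells around it, often called shell, merge with the deep layers of the neighbouring cortex. Neurons of these neighbouring layers carry genes of corticofugal and layer 6 cells, which is why deep-layer genes were scored beside those of the core and the shell.

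The genes of the rule are given first, as a description with no test. In the blind mouse and projection mice 1, 2 and 3, the order used throughout, summed core-like cells had 1682, 1909, 1347 and 1853 CPM (counts scaled to a common library total) of Synpr, the gene of the vesicle protein synaptoporin, against 30.4, 8.39, 4.84 and 11.7 CPM in shell-like cells. Summed deep-like cells had 19.99, 333, 8.27 and 194 CPM of Synpr, so its level there was not low in projection mice 1 and 3. All 5 core genes were detected in 397 core-like cells (90.4%), 4 of them in 35 cells and 3 in 7 cells, whereas 12 of the other cells (2.10%) had all 5. Gnb4, a G protein beta subunit gene, and Lxn, a carboxypeptidase inhibitor gene, had a count in 70.6% and 60.8% of the other cells too, while Gfra1, a GDNF receptor gene, and Cpne4, a copine gene, had one in 11.9% and 21.0% of them. Of the genes scored against membership, Syt6 had no count in any of the 439 core-like cells (exact upper limit 0.837% of cells), while Tle4 was detected in 17.3% and Col6a1 in 25.1%.

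**Figure D1:**
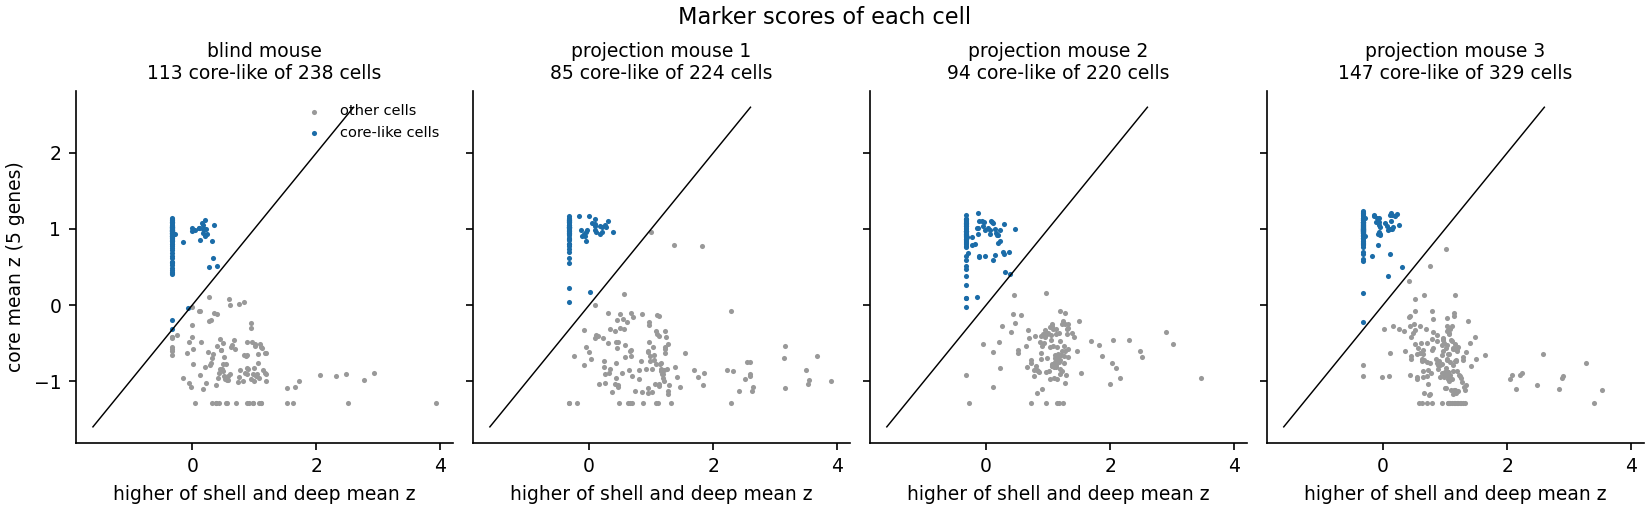
Each point is 1 kept cell, with the mean standardized level (z) of the 5 core genes on the vertical axis and the higher of the shell and deep means on the horizontal axis, by mouse. Points above the line of equal scores are core-like cells (113, 85, 94 and 147 in the 4 panels).

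Few cells lay near the line of equal scores. The smallest differences between the core mean and the next were 0.0140, 0.0212 and 0.0223 inside the rule, and the nearest cells outside had differences of -0.0223, -0.0355 and -0.0843, against a median difference of 1.25 over core-like cells. Leaving out cells within 0.5 of the line kept 417 of the 439. Clustering of the kept cells without the 14 genes of the rule placed 426 core-like cells (97.0%) in 1 cluster of 435 cells, of which 97.9% were core-like. The 13 core-like cells elsewhere, 11 with mostly shell-like and 2 with mostly deep-like cells, had a median score difference of 0.136, against 1.27 for those inside, and came from all 4 mice (4, 2, 6 and 1 cells). These other genes were measured in the same cells and are not an independent sample.

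The deposited values were counts per gene and cell, taken here as reads, with a median of 26023 per kept cell in the blind mouse and 138535 to 154262 in the projection mice, which were sequenced on another flow cell with another read length. Depth and sequencing run cannot be told apart from the animal there, so comparisons were made within mice. No cell name occurred in both tables, while 231 barcode sequences did. Cells were picked singly and no doublet caller was run. Gad1 and Gad2, genes for the synthesis of the inhibitory transmitter GABA, were detected together in 4 kept cells, 1 of them core-like.

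Core-like cells were the majority of the RSC-labelled cells and a minority of the LEC-labelled cells in each projection mouse. In projection mice 1, 2 and 3 they made up 75.0%, 84.3% and 91.2% of the RSC-labelled cells, against 23.8%, 15.8% and 11.5% of the LEC-labelled and 22.5%, 31.1% and 33.7% of the unlabelled cells. The mean RSC minus LEC difference was 66.5 percentage points, and in all 3 mice it had the same direction, but with 3 mice the exact sign-flip permutation test (two-sided) gave p = 0.25, the smallest it allows. Plate and label coincided except on 1 plate of projection mouse 3, where core-like cells were 29 of 34 RSC-labelled cells (85.3%, exact 95% interval 68.9 to 95.05%) and 9 of 44 LEC-labelled cells (20.5%, 9.80 to 35.3%). Without that plate, the shares in projection mouse 3 were 93.7% and 6.98%.

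**Figure D2:**
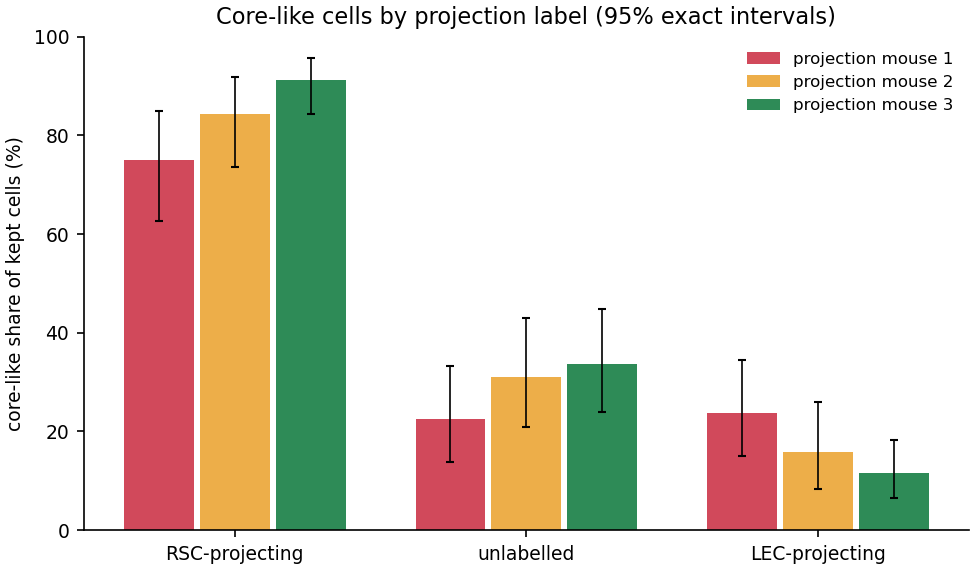
Bars give the percentage of kept cells that were core-like for each projection label (RSC, retrosplenial cortex; LEC, lateral entorhinal cortex) and mouse, with exact 95% intervals that cover counting error only. RSC bars lie between 75.0% and 91.2% and LEC bars between 11.5% and 23.8%.

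Seen from the other side, 210 of the 326 core-like cells of the projection mice (64.4%) were RSC-labelled, 46 (14.1%) LEC-labelled and 70 (21.5%) unlabelled. In the blind mouse, where no cell was picked for a tracer, core-like cells were 113 of 238 (47.5%, exact interval 41.0 to 54.0%), and its 3 plates held 48.1%, 60.5% and 34.9%. The transcript of the GFP tracer was listed in that mouse only. It had at least 1 count in 48 of 113 core-like cells (42.5%, 33.2 to 52.1%), 19 of 87 shell-like cells (21.8%, 13.7 to 32.0%) and 3 of 38 deep-like cells (7.89%, 1.66 to 21.4%), at median totals of 25511, 27253 and 28785 counts. With 1 mouse these shares have no replicate, and the intervals cover counting error only.

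Total counts per cell had no common direction over mice, and the number of genes was higher in core-like cells in most mice. The median total per cell was higher in core-like cells in 2 of 4 mice (ratios 0.895, 1.41, 0.847 and 1.15, p = 0.75, exact sign-flip permutation test). At 20000 counts per cell, the medians were 4080, 4035, 3956 and 3966 genes in core-like cells and 4083, 3827, 3768 and 3711 in the other cells (3 of 4 mice higher, exact permutation p = 0.25). At full depth, core-like cells had more genes in 4 of 4 mice, with a mean log2 ratio of 0.11 ± 0.07 (SD, n = 4 mice), and the exact permutation p was the smallest that 4 mice allow. Counts per spike-in count, a measure of the RNA recovered from a cell, were higher in core-like cells in 4 of 4 mice, with medians of 17.3, 13.4, 12.2 and 15.2 against 15.04, 10.6, 9.70 and 10.6. The mean log2 ratio was 0.34 ± 0.13 (SD, n = 4 mice), and the exact permutation p, the smallest that 4 mice allow, was 0.375 after Benjamini-Hochberg adjustment over 3 measures.

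To compare genes, counts were summed over the core-like and over the other cells of each mouse, and the sums were tested with edgeR's quasi-likelihood test with the mouse as a block and Benjamini-Hochberg adjustment. The cells had been sorted by genes measured in the same cells, so a gene that goes with the 14 genes of the rule from cell to cell differs between the groups by that choice. The test says whether its difference exceeded the spread among mice. Of 13607 genes tested, 1996 (14.7%) passed an adjusted p of 0.05, 1003 higher in core-like cells (7.37%) and 993 lower (7.3%). Without projection mouse 3 the number was 1301.

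Against shell-like cells 1089 of 13103 genes passed (8.31%, with 4.17% higher and 4.14% lower), and against deep-like cells 1650 (12.6%, with 6.56% higher and 6.03% lower). Core-like cells were higher than both populations in 300 genes (2.29%) and lower than both in 336 (2.56%), while 13 genes were higher than in shell-like and lower than in deep-like cells and 5 the reverse. The shell comparison gave 609, 600 and 516 genes without the blind mouse and projection mice 1 and 3, and the deep comparison gave 987, 1037 and 889 without the blind mouse and projection mice 2 and 3. Levels below are CPM after TMM scaling, and differences are log2 fold changes, core-like minus the reference.

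The genes with the largest rises in core-like cells encoded receptors, enzymes, matrix proteins and a second vesicular glutamate transporter. They were nearly silent in the other cells, which the choice favours, since the minimum level for naming a gene applied to the higher group only. Fam181b had 1340 counts in core-like cells (27.0, 21.7, 8.86 and 28.1 CPM) and none in the other cells of any mouse. Taking 3 counts as the limit for all other cells, it was at least 515-fold higher. Car3, which encodes a carbonic anhydrase, was at 74.1, 66.5, 39.5 and 67.0 CPM in core-like cells against 0.530, 0.0491, 0.0494 and 0.316 CPM in the other cells, a log2 fold change of 8.36 ± 0.37 (SE; adjusted p = 1.48e-05, edgeR). A second carbonic anhydrase gene, Car2, was 4.72 ± 0.55 higher (adjusted p = 0.000986, edgeR), with 115, 169, 121 and 185 CPM against 3.97, 11.1, 9.83 and 1.16 CPM.

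Further genes of this set encode a kinase, receptors and a growth factor. Prkcd, the gene of protein kinase C delta, stood at 153, 91.9, 36.0 and 89.5 CPM in core-like cells and at 0.795, 3.39, 0.296 and 1.75 CPM in the other cells (log2 fold change 5.73 ± 0.36, adjusted p = 6.12e-05, edgeR). Htr2c, the serotonin 2C receptor gene, was at 119, 59.4, 86.2 and 58.9 CPM against 5.03, 5.90, 0.543 and 1.23 CPM, a difference of 4.98 ± 0.54 (adjusted p = 0.000655, edgeR). In both genes the lowest core-like sum was several times the highest of the other sums. Npffr1, a receptor for neuropeptide FF, rose by 6.65, Gpr6, a constitutively active receptor coupled to cyclic AMP, by 4.61, and Fgf1, a fibroblast growth factor gene, by 6.05.

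Slc17a6, which encodes the vesicular glutamate transporter VGLUT2, was at 70.3, 78.7, 63.7 and 102 CPM in core-like cells. In the other cells it was at 0, 2.90, 3.21 and 1.40 CPM, so that core-like cells carried transcripts of this transporter besides Slc17a7, which the rule required. Its log2 fold change was 5.26 ± 0.43 (adjusted p = 0.00018, edgeR), with 8.48 against shell-like and 3.14 against deep-like cells. Extracellular and adhesion genes comprised Col11a1, a fibrillar collagen gene (4.68 ± 0.32), Coch, which encodes the matrix protein cochlin (5.35 ± 0.44), and Fermt1, which encodes the integrin adaptor kindlin-1 (8.24 ± 0.40). Gtf2a1l, a gene related to the general transcription factor TFIIA, completed the set with 5.05 ± 0.89.

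Trem2, best known as a receptor gene of microglia, was also among these genes. It was at 39.5, 44.1, 32.2 and 41.3 CPM in core-like cells against 0.265, 1.52, 0.148 and 0.596 CPM in the other cells (5.98 ± 0.43, adjusted p = 9.57e-05, edgeR). The 7 microglia markers together ranged from 0 to 3.42 CPM over mice in core-like cells and from 0.145 to 7.25 CPM in the other cells. Only 1 of the 7, C1qa, was at 0 in all core-like cells, so the rest had counts there. Whether microglial transcripts had a part in the Trem2 counts was not tested. At 20000 counts per cell Trem2 had a count in 114 of 407 core-like cells.

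**Figure D3:**
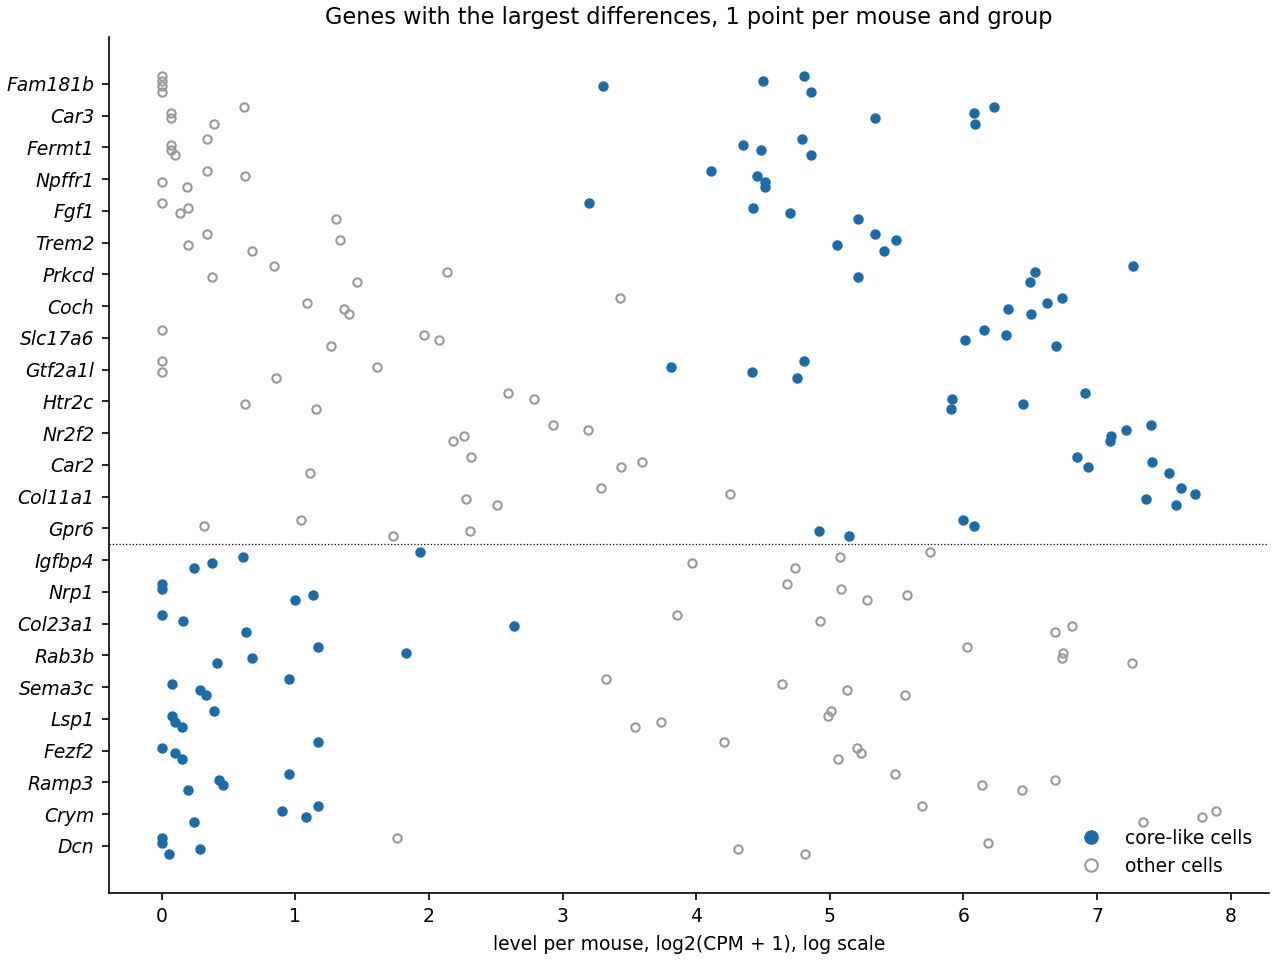
For the 15 genes with the largest rise (above the dotted line) and the 10 with the largest fall in core-like against other cells, the level of each mouse is shown as log2(CPM + 1), filled for core-like and open for other cells. The genes were chosen for large differences alike in every mouse. In each of the 25 the 4 filled points lie on one side of the 4 open points.

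All 15 genes had higher levels in every core-like sum than in any other sum, and the 10 lower genes had the reverse. Of all genes tested, 15.5% had ranges that did not overlap. The 25 genes were chosen for the largest differences alike in every mouse, which favours such ranges, so the 2 are not comparable. Each of the 15 was called higher than in shell-like cells, and all except Gtf2a1l (adjusted p = 0.0919) than in deep-like cells in the same edgeR test. Without the blind mouse 9 of the 15 were called against both populations, the calls of Fgf1, Coch, Htr2c and Car2 against deep-like and of Gpr6 and Gtf2a1l against shell-like cells not being kept, and without projection mice 1, 2 and 3 the numbers were 14, 13 and 12. Against the pool of other cells, no call among the 25 was lost in any alternative in which the gene was tested.

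High sums did not mean that each core-like cell carried these transcripts. In cells thinned to 20000 counts, Col11a1 had a count in 321 of 407 core-like cells (78.9%) and Nr2f2 in 292 (71.7%), against 4.81% and 3.65% of 520 other cells. Car2 (65.4%), Htr2c (50.9%), Coch (47.4%), Slc17a6 (44.0%) and Prkcd (41.3%) were detected in smaller shares, and Fermt1 (15.7%) and Npffr1 (15.2%) in fewer still. The range over mice was wide for Prkcd (23.3 to 55.8%) and narrow for Coch (44.2 to 51.2%). At full depth, with median totals of 126604 counts in core-like and 118021 in other cells, the shares of core-like cells with a count were 50.8% for Prkcd and 85.0% for Col11a1. Of the core-like cells too shallow for thinning, 27 came from the blind mouse, 1 from projection mouse 1 and 4 from projection mouse 2.

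The genes with the largest falls included regulators of cortical projection neurons and guidance molecules. Crym, which encodes a thyroid hormone binding protein of corticofugal layers, was at 1.26, 0.872, 1.12 and 0.184 CPM in core-like cells against 50.6, 236, 220 and 162 CPM in the other cells (-8.12 ± 0.38, adjusted p = 1.66e-05, edgeR). Fezf2, a transcription factor gene required for subcortically projecting neurons, was at 1.26, 0, 0.0745 and 0.110 CPM against 17.5, 35.9, 36.7 and 32.3 CPM (-7.74 ± 0.76). Both were near 0 in core-like cells of all 4 mice and were called lower than in shell-like as well as deep-like cells.

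Ramp3, the gene of a protein that modifies receptors of the calcitonin family, was lower by 8.01 on the log2 scale (0.942, 0.349, 0.372 and 0.147 against 44.0, 102, 69.4 and 85.7 CPM), and its relative Ramp1 was lower than in shell-like cells (-5.34 ± 0.35). Rab3b, a vesicle-associated GTPase gene, was lower by 6.79. Nrp1, a co-receptor for class 3 semaphorins, was at -5.99 ± 0.59 and Sema3c, a gene of that class, at -7.04 ± 0.61, so that a ligand and a receptor component fell together. Dcn (the matrix proteoglycan decorin, -8.81 ± 0.67), Col23a1 (a membrane collagen, -6.06), Igfbp4 (an insulin-like growth factor binding protein, -5.72) and Lsp1 (an actin-binding protein, -7.31) made up the rest.

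Lsp1 differed by the population it was compared with. Its fall was against deep-like cells, which had 93.6, 97.1, 78.9 and 87.6 CPM (-9.62 ± 0.43), and in shell-like cells it was as low as in core-like cells, with means of 0.136 and 0.140 CPM. Of the 10 genes, 9 were called lower than in both populations. That number was 8 without the blind mouse, 7 without projection mouse 1, 9 without projection mouse 2 and 7 without projection mouse 3. The calls not kept were those against deep-like cells of Dcn, without the blind mouse (adjusted p = 0.0900) or projection mouse 1 (0.909) or 3 (0.0891), and of Sema3c, without projection mouse 1 (0.0932) or 3 (0.135), all from edgeR.

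Among the genes that set core-like cells most apart from shell-like cells and that are not named above, Mdga1, a gene of a synaptic adhesion protein, was at 25.4 ± 5.80 CPM (SD, n = 4 mice) against 0.291 ± 0.345 CPM (7.12 ± 0.59, adjusted p = 4.29e-05, edgeR). Mapk13, a p38 kinase gene (5.27), Shisa6, an AMPA receptor auxiliary protein (5.09), Anxa2, an annexin (4.77), and Gpr153, an orphan receptor (5.34), were also higher. Shisa6 and Mapk13 were not called against deep-like cells, with differences of 1.28 and 0.61. The call of Gpr153 (adjusted p = 0.0198, edgeR) was not kept without the blind mouse (0.0522) or without projection mouse 2 (0.0742), nor in cells without a projection label (0.0839) or with no mouse block (0.214, the highest over its alternatives). The call of Mapk13 (adjusted p = 0.00424) was not kept in cells without a projection label (0.0833, the highest over its alternatives). Lower than in shell-like cells were Wnt7b, a secreted Wnt ligand (-5.31), Necab2, a neuronal calcium-binding protein (-5.72), Col5a2, a collagen (-6.08), and Kazn (-5.40), in addition to Ramp1.

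Against deep-like cells the largest further rises were in Luzp2 (7.21 ± 0.64) and Glipr1 (6.88 ± 1.10). Tfap2d (6.46 ± 0.81), Zfhx4 (5.27 ± 0.93) and Osr1 (5.24 ± 0.45), which encode DNA-binding proteins, followed. Osr1 was not specific to core-like cells, with 33.9 ± 6.17 CPM in them, 70.9 ± 25.6 CPM in shell-like cells and 1.03 ± 0.737 CPM in deep-like cells, and the core to shell difference of -1.02 was not past the threshold (adjusted p = 0.0569, edgeR). Pcp4, a calmodulin-binding protein gene of deep cortical layers, was at 26.3 ± 33.7 against 1730 ± 892 CPM (-6.60). Nfatc2 (-8.71), Calca, the CGRP precursor gene (-8.65), Arhgap25 (-6.93) and Nfe2l3 (-6.74) were lower too. Nfatc2 rested on 3 counts in core-like cells against 694 in the other cells, a ratio of 0.00499 (95% counting interval 0.00103 to 0.0146).

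Most further genes listed as claustrum markers, none of them used by the rule, were higher in core-like cells. Of 8 genes listed, 7 were tested and 6 were higher than in the other cells, where 7.37% of all genes were. Their median log2 fold change was 2.70, beside -0.01 for all genes. Against shell-like cells 5 of the 7 were higher, and against deep-like cells also 5. The list was chosen with earlier results of these data known, and Slc17a6 and Nr2f2 were also named above for their large rises. These shares are therefore a description and no independent check of the core-like cells. Nr4a2, an orphan nuclear receptor gene, was at 1839, 1502, 1350 and 1590 CPM against 268, 142, 152 and 206 CPM (3.07 ± 0.10, adjusted p = 4.77e-06, edgeR). It was detected in 99.8% of core-like cells thinned to 20000 counts, but also in 54.8% of the other cells.

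Gng2, a G protein gamma subunit gene, was at 655, 732, 590 and 649 CPM against 144, 180, 155 and 178 CPM (2.0 ± 0.07, adjusted p = 4.77e-06, edgeR). Oprk1, the kappa opioid receptor gene, was at 402, 583, 481 and 425 CPM against 76.3, 58.7, 90.9 and 67.6 CPM (2.70 ± 0.15, adjusted p = 3.93e-05). Both transcripts were present on both sides, and the share of cells with a count differed too. In thinned cells Gng2 had a count in 99.8% of core-like and 79.8% of other cells, and Oprk1 in 93.1% and 33.5%. Nr2f2, the gene of the nuclear receptor COUP-TFII, was at 168, 148, 136 and 136 CPM against 6.62, 8.11, 3.8 and 3.54 CPM (4.82 ± 0.21), and so was close to absent from the other cells.

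The remaining 2 markers were at low levels. Ntng2, a netrin-G gene, was low in both groups at 4.45 ± 2.26 against 0.843 ± 0.456 CPM (2.53 ± 0.63, adjusted p = 0.0302, edgeR), and its call was not kept without projection mouse 1 (0.0906), 2 (0.0685) or 3 (0.175). Egr2, an immediate early gene, was at 19.5, 0.0581, 2.38 and 18.6 CPM against 4.77, 0.639, 1.53 and 8.28 CPM, a difference of 0.68 ± 0.66 that was not past the threshold (adjusted p = 0.59, edgeR). Against shell-like cells Nr4a2 was called in the full set (3.07 ± 0.63, adjusted p = 0.0114) but not without the blind mouse (0.0746), projection mouse 1 (0.0559) or projection mouse 3 (0.0661). Oprk1 there (2.39 ± 0.58, adjusted p = 0.0256) was likewise not called without the blind mouse (0.0861), projection mouse 1 (0.0829) or projection mouse 3 (0.114).

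Transcription factors showed the highest share of calls among the functional lists. Of 37 forebrain transcription factor genes tested 12 were higher and 13 lower, against 7.37% and 7.3% of all genes, with a median log2 fold change of 0.05. The strongest were Crym (counted in this list as a layer marker), Fezf2 and Nr2f2, described above, and these 3 had levels in core-like cells that did not overlap those in the other cells. Nr4a2, also in the list, is described above.

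**Figure D4:**
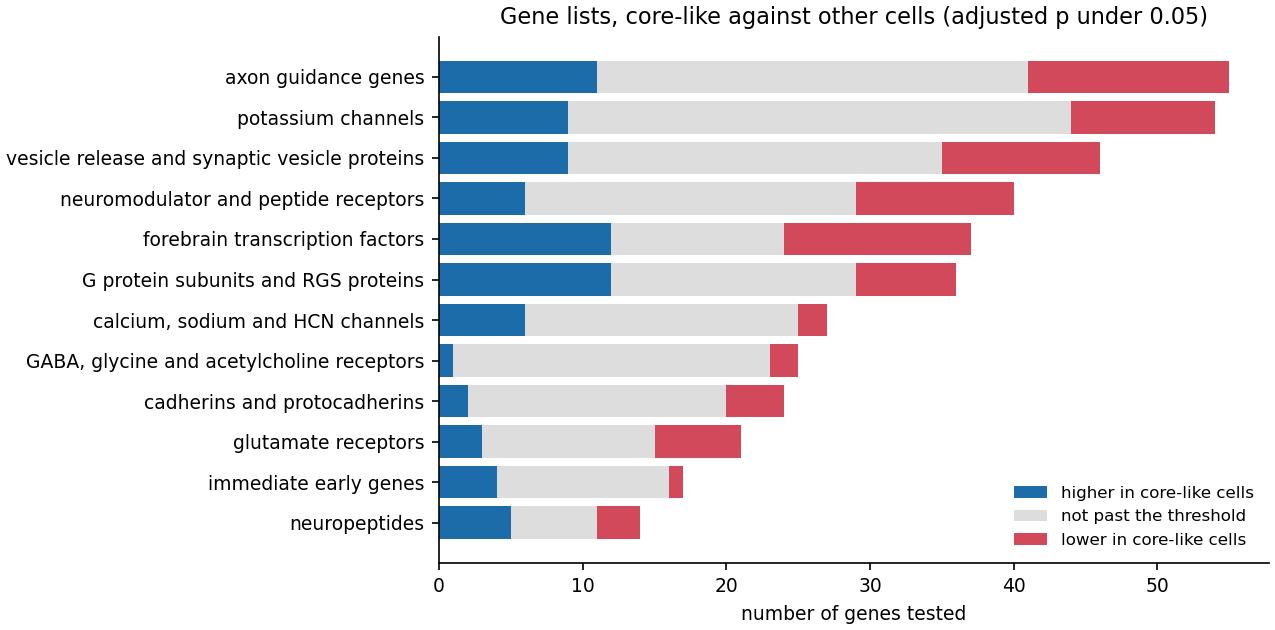
Bars give, for 12 functional gene lists, the number of genes tested that were higher in core-like than in other cells, not past the threshold, or lower (edgeR, adjusted p under 0.05). For comparison, 7.37% of all genes were higher and 7.3% lower, and the list of forebrain transcription factors has 12 and 13 of 37.

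Peptide genes were also called in both directions. Of 14 neuropeptide and granin genes 5 were higher and 3 lower, against 7.37% and 7.3% of all genes. Nmb, the gene of neuromedin B, was at 37.0, 96.1, 45.0 and 106 CPM against 4.50, 5.90, 5.29 and 5.68 CPM (3.68 ± 0.25, adjusted p = 7.98e-05, edgeR). Chgb, which encodes a granin of dense-core vesicles, was at 2612, 3180, 3965 and 3467 CPM against 682, 1113, 846 and 1281 CPM (1.78 ± 0.12, adjusted p = 8.73e-05). Both were higher in core-like cells of 4 of 4 mice. Npy, the neuropeptide Y gene, was lower (-4.79 ± 0.47, adjusted p = 0.000398), and its sums varied widely, from 0.314 to 110 CPM in core-like and from 128 to 1274 CPM in the other cells. The call of Npy was not kept in cells without a projection label (adjusted p = 0.0662, edgeR).

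Receptor genes were called in both directions. Of 40 receptors for neuromodulators and peptides 6 were higher and 11 lower, against 7.37% and 7.3% of all genes. The median was -0.07, and the higher ones included Htr2c and Oprk1. Adra1b, an alpha-1 adrenergic receptor gene, was among the lower ones at 4.11 ± 2.64 against 23.2 ± 7.72 CPM (-2.68 ± 0.48, adjusted p = 0.00721, edgeR). Against deep-like cells the same list had 7 higher and 3 lower of 37, where 6.56% and 6.03% of all genes were.

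G protein subunits and their regulators had more genes up than down, 12 higher and 7 lower of 36. The median was 0.05, and of all genes 7.37% were higher and 7.3% lower. Rgs12, which encodes a regulator that speeds the inactivation of G proteins, was at 738, 1072, 925 and 970 CPM against 142, 95.4, 96.2 and 102 CPM (3.11 ± 0.17, adjusted p = 3.19e-05, edgeR). Another regulator gene, Rgs20, was at 111, 43.1, 31.9 and 46.7 CPM against 33.9, 6.54, 5.48 and 7.86 CPM (2.39 ± 0.20, adjusted p = 0.00018), and with Gng2 these were the 3 largest differences of the list at 20 CPM or more. The call of Rgs20 was not kept in the fit with no mouse block (adjusted p = 0.0605). The core gene Gnb4 encodes a subunit of the same family but was part of the rule.

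Ion channel genes moved in both directions, where 7.37% of all genes were higher and 7.3% lower. Among 54 potassium channel genes 9 were higher and 10 lower (median 0.06). Kcng1, a modifier subunit (-4.04 ± 0.32), Kcnab1, an auxiliary beta subunit (-2.93 ± 0.40), and Kcnip3, a calcium-binding partner of A-type channels (-2.60 ± 0.12), had the largest differences. Among 27 calcium, sodium and HCN channel genes 6 were higher and 2 lower, the latter near the share of all genes (median 0.12). Cacna1a, the pore-forming gene of P/Q-type calcium channels, was at 5.96, 0.814, 5.21 and 1.29 CPM against 85.8, 80.3, 53.4 and 64.9 CPM (-4.79 ± 0.51, adjusted p = 0.000579, edgeR). Cacnb3, an auxiliary subunit gene of calcium channels, rose by 0.68 ± 0.10.

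Transmitter receptor genes were also called in both directions. Of 21 glutamate receptor genes 3 were higher and 6 lower, and those named by size were all lower: Grik3, a kainate receptor subunit (13 ± 5.58 against 62.8 ± 8.90 CPM, -2.25 ± 0.27), and the metabotropic receptors Grm3 (-2.10 ± 0.17) and Grm8 (-1.6 ± 0.19). Of 25 GABA, glycine and acetylcholine receptor genes 1 was higher and 2 lower, near the background of 7.37% and 7.3%. Gabra5, the alpha-5 subunit of extrasynaptic GABA-A receptors, was at 18.2, 10.3, 6.26 and 10.02 CPM against 149, 125, 134 and 95.2 CPM (-3.58 ± 0.22, adjusted p = 6.12e-05, edgeR), while Gabrb1 differed by -0.67 ± 0.11.

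Of 46 genes of vesicle release 9 were higher and 11 lower, against 7.37% and 7.3% of all genes, with a median of -0.05. Beside Slc17a6 and Rab3b the third largest difference was in Cplx3, a complexin gene that also marks layer 6b, at 38.3, 5.29, 2.46 and 4.16 CPM against 408, 20.1, 84.4 and 8.07 CPM (-2.78 ± 0.57, adjusted p = 0.0139, edgeR). The value of the other cells rested on the blind mouse, without which the call was not kept (adjusted p = 0.1247). Nor was it kept in the fit with no mouse block (adjusted p = 0.140, edgeR). The 5 layer 6b markers listed in the tables summed to 39.3 to 84.4 CPM in core-like and 47.8 to 536 CPM in the other cells, and 2 of them were lower. Against deep-like cells 3 were lower (median -3.80), where 6.03% of all genes were. Against shell-like cells 1 was higher and 0 lower (median 1.98), where 4.17% and 4.14% of all genes were.

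Guidance and adhesion genes were split as well, where 7.37% of all genes were higher and 7.3% lower. Of 55 axon guidance genes 11 were higher and 14 lower (median -0.01), and the 3 largest differences at 20 CPM or more, all in semaphorin ligands or a co-receptor, were falls: Sema3c and Nrp1, above, and Sema3e (4.34 ± 6.0 against 44.4 ± 13.4 CPM, -4.24 ± 0.68, adjusted p = 0.00467, edgeR). Among 24 cadherins and protocadherins 2 were higher, near the share of all genes, and 4 lower (median -0.26). Cdh8, a type II cadherin, was at 120, 129, 149 and 161 CPM against 24.4, 25.8, 14.6 and 19.9 CPM (2.76 ± 0.20, adjusted p = 9.26e-05). Pcdh8, an activity-regulated protocadherin, was at 114, 139, 179 and 194 CPM against 4.50, 20.1, 46.5 and 47.3 CPM (2.59 ± 0.33, adjusted p = 0.00161). Both were the only higher genes of that list. Cdh10 (-0.65 ± 0.17, adjusted p = 0.035) was not called without the blind mouse (0.119) or projection mice 1 (0.0827), 2 (0.0819) or 3 (0.0565).

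Of 17 immediate early genes, which neurons switch on with activity and during dissociation, 4 were higher and 1 lower (median 0.35). Of all genes, 7.37% were higher and 7.3% lower. Arc, a postsynaptic gene, was at 153, 62.4, 69.3 and 179 CPM against 58.6, 24.6, 31.9 and 61.2 CPM (1.35 ± 0.11, adjusted p = 0.00018, edgeR), and Homer1 was at 164, 116, 121 and 158 CPM against 78.7, 43.9, 48.1 and 71.5 CPM (1.24 ± 0.10, adjusted p = 0.000173). Each exceeded the other cells of the same mouse in 4 of 4 mice, although the ranges of Arc were close to each other across mice. Jun was lower, at 60.9, 58.1, 72.0 and 67.3 CPM against 102, 159, 182 and 304 CPM (-1.46 ± 0.20, adjusted p = 0.00201). In the fit with no mouse block Arc was not called (adjusted p = 0.0634).

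Markers of non-neuronal and inhibitory cells varied between mice in both groups. The 7 oligodendrocyte markers summed to 51.4 to 452 CPM in core-like and 57.5 to 694 CPM in the other cells. Of 6 tested 2, Mobp (-2.31 ± 0.32) and Mbp (-1.20 ± 0.32), were lower, where 7.3% of all genes were. The call of Mobp was not kept in the fit with no mouse block (adjusted p = 0.154, edgeR). The call of Mbp (adjusted p = 0.0384, edgeR) was not kept without the blind mouse (0.128) or projection mouse 3 (0.0918). Nor was it kept with no mouse block (0.349) or without cells near the line of equal scores (0.0619). Astrocyte markers summed to 143 to 193 against 126 to 363 CPM with none of 3 called, endothelial markers stayed at or below 1.07 CPM, and inhibitory markers ranged from 0.290 to 44.3 against 0 to 151 CPM. Their part in the differences above was not tested.

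Core-like cells also differed from one another. Ranked by the spread of log2(CPM + 1) over core-like cells of a mouse, after removal of its trend on the mean, Bdnf, the gene of brain-derived neurotrophic factor, was second, second, first and first of 5629 genes in the 4 mice. The spread was also wide in the other cells, where the mean rank of Bdnf over mice was 7.0. The middle 80% of core-like cells ran from 199 to 3406, 82.2 to 2446, 3.62 to 2088 and 21.2 to 2939 CPM of Bdnf, about medians of 1399, 740, 872 and 944 CPM. After thinning to 20000 counts, Bdnf had a count in 96.5%, 91.7%, 87.8% and 91.2% of core-like cells, so low cells were a minority. Within projection mouse 1 the median was 533 CPM in RSC-labelled, 1070 in LEC-labelled and 782 in unlabelled core-like cells, but in projection mouse 2 it was 845, 611 and 1191 CPM and in projection mouse 3 914, 960 and 1128 CPM, with no common order of the 2 projection labels.

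Bdnf was also higher in core-like than in other cells as a whole. The sums were at 1955, 1125, 1113 and 1410 CPM against 448, 366, 386 and 600 CPM (1.62 ± 0.12, adjusted p = 0.000133, edgeR). In the 4 mice every core-like sum exceeded every other sum, and 15.5% of all genes tested likewise had ranges that did not overlap. The difference was 1.38 against shell-like and 3.23 against deep-like cells.

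Other genes with a wide spread comprised Malat1, a nuclear noncoding RNA, the mitochondrial transcripts mt-Cytb and mt-Rnr2, the rule gene Synpr, and Cpne6, Fkbp1b, Gpr22 and Avpi1. Malat1 and the mitochondrial transcripts vary with the state of a cell and its RNA, and single cells reached 133701 CPM of Malat1 and 255675 CPM of mt-Cytb in projection mouse 1 against medians of 38099 and 9343 CPM. Cpne6, a copine gene, had medians of 160, 65.2, 329 and 262 CPM and a count in 77.0%, 81.2%, 87.2% and 84.4% of core-like cells. Its medians were higher in shell-like cells, at 389, 394, 398 and 538 CPM. In the other cells the mean rank of spread was 5.75 for Malat1, 16.0 for Cpne6 and 34.25 for mt-Cytb. It was 181.5 for Gpr22, 258.5 for Fkbp1b and 386.25 for Avpi1. Avpi1, a vasopressin-induced gene, was at 241, 307, 223 and 225 CPM in the core-like sums and was higher than in the other cells (1.06 ± 0.11, adjusted p = 0.000595, edgeR). Of the 10 genes of widest spread, 8 kept a place among the first 10 with a larger pseudocount and 6 in thinned cells, so the order depends on depth and scale.

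Some genes varied with or against Bdnf in all 4 mice. This description was chosen after the values were seen. Of 6870 genes examined, 1934 had a correlation with Bdnf of the same sign in every mouse, and only these were ranked. The weakest of the 4 correlations was at least 0.3 in size for 6 genes with Bdnf and 2 against it. Ranked by that weakest correlation at full depth, the first to go with Bdnf was Cdh9, a type II cadherin. Its Spearman's rho was 0.37, 0.47, 0.41 and 0.45 over 113, 85, 94 and 147 cells. In thinned cells its weakest rho was 0.23, below that of Tsc22d1 (0.27), Prkcb (0.26) and Gap43 (0.25). Next at full depth were Prkcb, Dgkb, Gap43 and Dok5, with weakest rho of 0.33, 0.32, 0.31 and 0.31. Hsph1, a heat shock gene (0.39, 0.30, 0.40 and 0.43), and Fosl2, an immediate early gene (0.40, 0.297, 0.45 and 0.42), came after these. In thinned cells the weakest rho was 0.185 for Dgkb, 0.135 for Dok5, 0.175 for Hsph1 and 0.166 for Fosl2. The first to go against Bdnf was Prkcd, with -0.34, -0.48, -0.39 and -0.45. Ndrg1 (-0.33, -0.39, -0.39 and -0.49) and Snap25, a gene of the filter on cells (-0.35, -0.37, -0.26 and -0.28), followed. Slc17a6 was next, and had -0.25, -0.38, -0.40 and -0.31 with Bdnf and 0.36, 0.50, 0.42 and 0.46 with Prkcd.

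Prkcd was picked for its negative correlation with Bdnf in these cells, so splitting them by Prkcd restates that choice and adds no separate evidence. Core-like cells with a count of Prkcd had lower Bdnf in each mouse. Their median Bdnf was 1227, 485, 299 and 501 CPM, against 1702, 973, 1019 and 1395 CPM in core-like cells with no count of Prkcd. The median totals of the 2 sets were close, at 25946 against 25145 counts in the blind mouse and 124376 to 192382 against 131014 to 210730 counts in the projection mice. The level of Cdh9 was not past the threshold against the pool of other cells (0.33 ± 0.22, adjusted p = 0.396, edgeR) or shell-like cells (0.04 ± 0.30, adjusted p = 0.976), but was higher than in deep-like cells (2.55 ± 0.34, adjusted p = 0.000589). Cells of a mouse share its library preparation and depth and are not replicates, so no test was made.

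**Figure D5:**
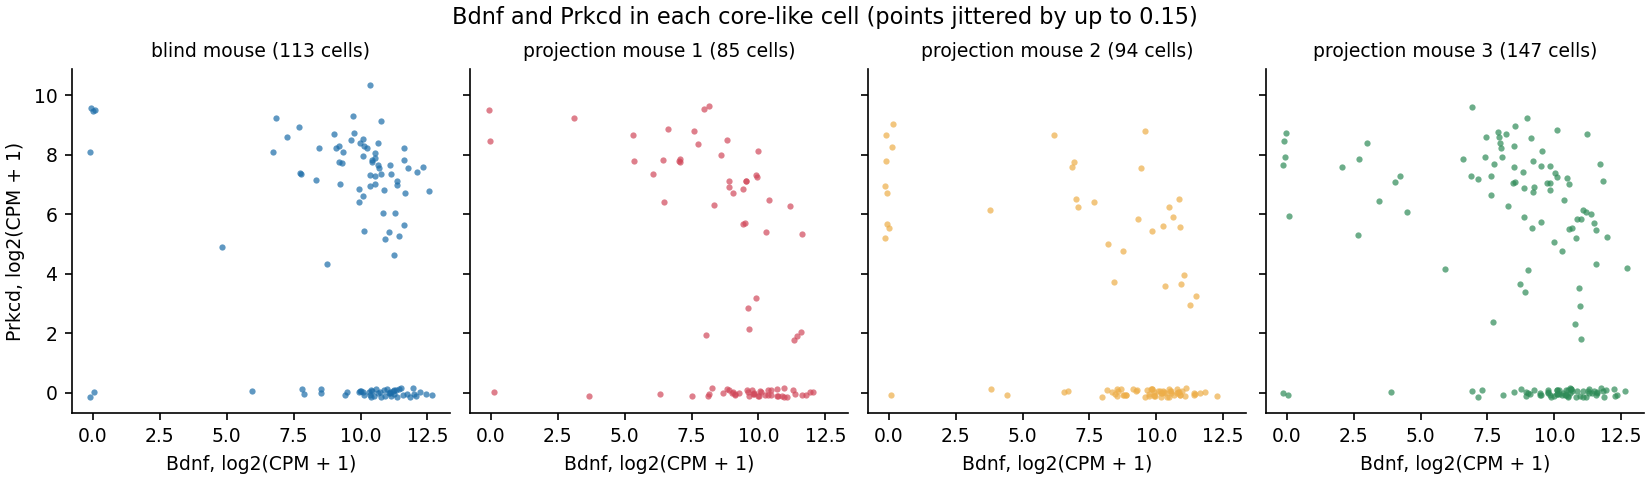
Each point is 1 core-like cell, with Bdnf on the horizontal and Prkcd on the vertical axis, both as log2(CPM + 1), by mouse. Prkcd was picked for its negative correlation with Bdnf in these cells. Cells with no count of Prkcd form the bottom row, at median Bdnf levels of 973 to 1702 CPM, against 299 to 1227 CPM in cells with Prkcd.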

How the data were processed

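Counts per gene and cell were deposited by the authors in 2 tables, without normalization, with the animal and projection label of each cell. Per their methods, each read was assigned a cell barcode and UMI, and STAR was the aligner. NCBIM37 is named in the submitters' processing notes, and the STAR version, annotation and strand setting are not given in the sources used here. The methods give totals in reads, so a count is taken as a read.

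ERCC rows were left out except for spike-in ratios. Genes listed in 1 table only (16575 were in both, of 23427) had 0 in the other. The rule used log2(CPM + 1) standardized over kept cells. Counts were summed per mouse and group and tested with edgeR 4.0.16 (TMM, filterByExpr, quasi-likelihood F test, design with mouse and group, threshold 0.05), without the 14 rule genes. Core-, shell- and deep-like sums were fitted together. Both sums of a mouse stem from 1 animal, and their deviations correlated (0.639, 0.245, 0.217 and 0.214). DESeq2 1.42.0 was an alternative. Seurat 5.3.0 made the clusters. Shares have exact Clopper-Pearson intervals, which cover counting error only. Tests were checked on simulated data.

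Named genes were the 15 largest rises and 10 largest falls changed alike in every mouse and at 20 CPM or more, 5 and 5 further genes against each population, up to 3 per list at 20 CPM or more, all claustrum markers, and the 10 most variable genes. Members, lists and tests were chosen with earlier results of these data known. In the GENCODE M21 annotation an exon overlaps one of another gene on the opposite strand for Fam181b, Gfra1, Syt6, Gng2, Ramp3, Rab3b, Cacna1a, Cdh8, Pcdh8, Gabra5, Kcnab1, Rgs12, Rgs20, Glipr1, Tfap2d and Wnt7b, and on the same strand for Nrp1, Ntng2 and Pcp4, which leaves their counts uncertain to that extent. Results for some genes that this rule names are not reported here.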

Additional observations from a re-analysis of the deposited data

Results flagged for a closer look

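Of 55 groups of 4 values, 1 per mouse, 7 had a mouse farther from the rest than Dixon's 95% limit for 4 values allows. Chance gives this in about 1 group of 20 for normally distributed values, which levels resting on few counts need not be. All 7 were low levels of a gene in the group where it was nearly silent, and the cause was not tested. In 4 of them the blind mouse stood highest. Its core-like and other sums held 3420902 and 3916599 counts, against 13515401 to 27491896 in the projection mice. A level of 1 CPM was therefore only a few counts in the blind mouse. Its other cells had 0.265 CPM of Fermt1 (the next mouse 0.0702) and 9.80 CPM of Coch (next 1.65). Its core-like cells had 1.26 CPM of Fezf2 (next 0.110) and 2.82 CPM of Igfbp4 (next 0.523). Projection mouse 2 stood highest in core-like cells for Dcn, at 0.223 CPM (next 0.0368), and Col23a1, at 5.21 CPM (next 0.552). Projection mouse 3 stood highest for Fgf1 in other cells, at 1.47 CPM (next 0.147). In each of these genes the group in which it was higher lay above the flagged value in all 4 mice.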

How the results depend on the processing

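The replicate block (the mouse) is part of the main fits, since both sums of a mouse stem from 1 animal. With no replicate block, 1195 genes passed against other cells in place of 1996, 710 against shell-like cells in place of 1089, and 1195 against deep-like cells in place of 1650. DESeq2 gave 1669 against shell-like cells. In cells without a projection label, where 183 core-like cells remained, the counts were 947 against other and 596 against shell-like cells. Leaving out each mouse in turn gave 1301 to 1516 genes against other, 516 to 800 against shell-like and 889 to 1236 against deep-like cells, and 292 to 354 core-like cells. The log2 ratio of total counts per cell, 0.07 over 4 mice, ran from -0.068 without projection mouse 1 to 0.18 without projection mouse 2. In thinned cells 6 of the 10 most variable genes kept their place. Other reversals were in differences that were not past the threshold. Egr2 was at -0.0061 against other cells in unlabelled cells, and against shell-like cells at -0.016 with DESeq2, -0.51 to 1.06 when each mouse was left out in turn (-0.17 without projection mouse 3) and -1.46 in unlabelled cells. Lsp1 against shell-like cells ran from -1.09 to 0.042 (without projection mouse 1) in the same way and was at 0.78 with standardization within each table. The cause of these changes was not tested, beyond the smaller number of mice or cells in some. Among the differences of named genes, the calls lost numbered 13, 7, 5 and 9 without the blind mouse and projection mice 1, 2 and 3, and 9 with no replicate block. Leaving out the 1 plate with both labels, chosen after seeing the data, changed no call of a named gene. Counts are taken as reads, and groups have 4 mice, so genes at a few counts per mouse are the least certain.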
